A study of Mus musculus with 2 samples.

Results

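The genes described here are the numbered cadherins and the protocadherins of the mouse, taken as every gene whose symbol is Cdh followed by a number or begins with Pcdh. They were 93 of the 55471 gene IDs in the deposited table, under 92 symbols, since *Pcdha11* stands on 2 IDs. Of these, 23 were *Cdh* and 70 were *Pcdh* IDs. RNA-Seq was run in bulk on sorted mouse kidney cells of the EpCAM-CD45-Nephrin-Pdpn+ gate, which the study treats as lymphatic endothelial cells, with 1 library from Ctrl (*Hoxb7-Cre-GFP*/+) and 1 from VhlhKO (*Hoxb7-Cre-GFP*/+; *Vhlh* loxP/loxP) animals. Ctrl and VhlhKO mice were male, on a C57BL/6J background and untreated, and both carried the *Hoxb7-Cre-GFP* driver, whose Cre acts in part of the tubule epithelium. An entry for the Ctrl sample instead gives *Vhlh* loxP/loxP without Cre. The age is given as 12 weeks in 1 entry, as 8 to 12 weeks in another and as 10 to 12 weeks in the design text. Mice were pooled for each library, 6 per group in the section on sorting and 3 in the section on sequencing. The sample labels describe selection by Pdpn alone. Sorted cells stayed for some hours in endothelial cell medium before RNA was taken.

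Cadherins are membrane proteins that join neighbouring cells by calcium-dependent binding, usually of like to like, and the classical ones hold the actin cytoskeleton through catenins at adherens junctions. Which cadherin a cell makes follows its type: E- and P-cadherin mark epithelia, VE-cadherin marks endothelium, N-cadherin and cadherin 11 mark mesenchyme, and the kidney adds Ksp-cadherin and cadherin 6 in its tubules and their precursors. Protocadherins lack the catenin-binding tail of classical cadherins. Many are encoded in the alpha, beta and gamma clusters, which are best known from neurons, where each cell makes its own set. Others, the non-clustered delta protocadherins, stand alone in the genome.

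Promoter sequence is shown for *Cdh6*, the most abundant member, whose count was lower in VhlhKO, and for *Pcdh19*, a delta protocadherin gene with more than 1000 counts in each library, whose count was higher. RefSeq promoters of the GRCm38.p6 build were at hand for 22 of the 93 members. The windows run 250 bases up to the start of a RefSeq transcript, which need not be the start of the annotated gene. They are given 5′ to 3′ on the minus strand, on which both genes lie, with each CG dinucleotide in capitals. The *Cdh6* window is chr15:13173676-13173925 and the *Pcdh19* window is chrX:133688994-133689243.
Cdh6: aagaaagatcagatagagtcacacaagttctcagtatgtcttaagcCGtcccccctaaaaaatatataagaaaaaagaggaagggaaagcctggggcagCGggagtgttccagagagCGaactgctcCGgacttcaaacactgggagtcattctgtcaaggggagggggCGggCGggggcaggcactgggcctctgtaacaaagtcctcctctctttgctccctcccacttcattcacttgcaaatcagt
Pcdh19: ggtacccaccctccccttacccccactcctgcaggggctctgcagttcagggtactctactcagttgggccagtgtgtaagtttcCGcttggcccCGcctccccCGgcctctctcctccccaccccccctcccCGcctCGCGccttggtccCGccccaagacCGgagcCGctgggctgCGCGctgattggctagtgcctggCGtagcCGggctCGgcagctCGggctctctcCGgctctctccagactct
The *Cdh6* window held 6 CG dinucleotides at a GC content of 51.2%, close to the medians of 6 and 52.4% over all 32851 promoters of the table. The *Pcdh19* window held 16 at a GC content of 69.2%, and 25.4% of all promoters held at least as many. On either strand, neither window held ACGTG, the core of the hypoxia response element, which 16.6% of all promoters of that length held. The variant GCGTG (28.2% of all promoters), the E-box CACCTG (17.2%) and the E-box CACGTG (6.02%, which contains ACGTG) were not in these windows either. Among the other measured members with a promoter at hand, GCGTG was in the windows of *Cdh23*, *Pcdh10*, *Pcdh17* and *Pcdh18*. It was also in both overlapping windows of *Pcdh9*. GCGTG was absent from the windows of *Cdh10*, *Cdh18*, *Cdh24* and *Pcdh7*. The *Cdh10* and *Cdh18* windows lie inside the annotated genes and not before them. Of the other members with a window, *Pcdh9* too is a delta protocadherin gene with more than 1000 counts in each library and a higher count in VhlhKO. These letters describe the windows only.

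Total counts were 34465017 for the VhlhKO library and 31817115 for Ctrl, and they were scaled by TMM, a factor that sets aside the most different genes. Levels of different genes are compared by the authors' TPM, which divides by gene length. A ratio is VhlhKO over Ctrl of scaled counts, and the range after it is its exact 95% interval (Clopper-Pearson). With 1 library per genotype there was no replicate and no test between genotypes, so the intervals cover counting error only, without the spread between mice or pools, and PCR copies are not independent molecules. The log2 ratio was taken with 0.5 CPM (counts scaled to a library of 1000000) added to both sides, and a gene counted as measured where at least 1 library had at least 20 counts, which held for 15275 genes. *Vhl*, the mouse gene the study calls *Vhlh*, had 975 and 938 counts in VhlhKO and Ctrl (ratio 0.966, 0.882 to 1.06), a weak check of the labels because the gate was meant to leave out the cells with the deletion. Of the lymphatic markers, *Pdpn* stood at 132 and 114 TPM, *Flt4*, which encodes Vegfr3, at 11.3 and 9.70 TPM (ratio 1.18, 1.06 to 1.30) and *Prox1* at 1.76 and 1.93 TPM in VhlhKO and Ctrl, while *Mmrn1* and *Ccl21a* had no counts.

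Of the 93 members, 55 passed the count minimum, 38 did not, and 8 of the latter had no counts in either library. No member was at least 2-fold higher or at least 2-fold lower in VhlhKO on the log2 scale, where 1.71% of all measured genes were that much higher and 0.524% that much lower. At 1.5-fold, 5 members were higher and none was lower, beside 4.75% and 1.82% of all measured genes. The counting interval lay above 1 for 19 members (34.5% of the 55, against 19% of all measured genes) and below 1 for 6 (10.9% against 17.3%), and it held 1 for the other 30. The median log2 ratio was 0.12 over the 55 members and -0.00 over all measured genes. It was 0.03 over the 13 measured *Cdh* members and 0.17 over the 42 measured *Pcdh* members. Whether an interval excludes 1 depends on the number of reads, so these shares describe the 2 libraries and not the genotypes.

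**Figure D1:**
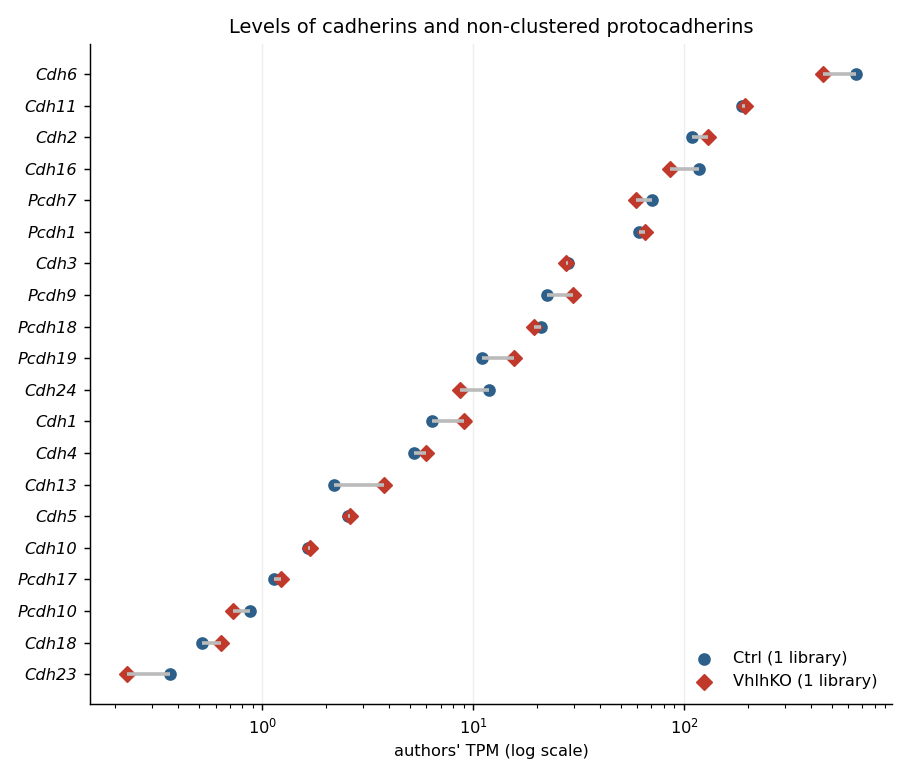
Levels of the measured *Cdh* genes and non-clustered protocadherins in the Ctrl (blue circles) and VhlhKO (red diamonds) libraries, in the authors' TPM on a log axis, with 1 library per point and no error bar. *Cdh6* tops the order in both libraries at 454 and 653 TPM in VhlhKO and Ctrl, and *Cdh5* lies far down at 2.60 and 2.54 TPM.

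The kidney cadherins *Cdh6* and *Cdh16* had the highest summed level of all groups, and both were lower in VhlhKO. *Cdh6* encodes cadherin 6, called K-cadherin, a classical cadherin of the developing nephron and its proximal tubule precursors, located at chr15:13028701-13173675 of GRCm38 on the minus strand. The VhlhKO library held 39384 of its counts and the Ctrl library 52422, or 454 and 653 TPM, ranks 250 and 161 among all genes. Its ratio was 0.698 (0.689 to 0.707), and its log2 ratio was -0.52. This was no 2-fold difference, but few abundant genes were lower by as much. Only 2.38% of the 15275 measured genes, and 0.505% of the 6531 genes with at least 1000 counts, had a lower log2 ratio. *Cdh6* alone made up 34.5% of the summed TPM of all members in VhlhKO and 43.8% in Ctrl. *Cdh16* encodes Ksp-cadherin, the kidney-specific cadherin of the basolateral membrane of tubule cells, at chr8:104601911-104624396. Its counts were 3110 (85.3 TPM) in VhlhKO and 3954 (117 TPM) in Ctrl, with a ratio of 0.731 (0.697 to 0.766). The *Cdh6* level was 5.32 times that of *Cdh16* in VhlhKO and 5.57 times in Ctrl, so the pair stood in nearly the same proportion in the 2 libraries. Both genes summed to 539 TPM in VhlhKO and 770 TPM in Ctrl, which was 41.0% and 51.7% of the TPM of all members.

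Markers of tubule cells did not all stand lower beside these cadherins. Of 7 measured proximal tubule markers, 4 passed 2-fold on the Ctrl side and 1, *Aqp1* (66 and 16 counts), on the VhlhKO side. These were 57.1% and 14.3%, against 0.524% and 1.71% of all measured genes. The summed TPM of the list was 14.6 in VhlhKO and 15.9 in Ctrl. *Slc34a1*, a phosphate transporter gene, had 0 and 51 counts in VhlhKO and Ctrl, and *Slc5a2*, a glucose transporter gene, had 1 and 28. The endocytic receptor gene *Lrp2* had 1528 and 1041. Defining genes of later segments, *Umod* of the thick ascending limb and *Aqp2* of the collecting duct, were at 0 in both libraries, and that list summed to 0.553 and 0.501 TPM. *Cdh6* was thus far above the summed level of either list. Of 5 markers of the parietal epithelium of the glomerular capsule, none was past 2-fold, and they summed to 3514 TPM in VhlhKO and 3862 in Ctrl, led by *Akap12* at 2955 and 3332 TPM. Most of that sum was *Akap12*, and the list went both ways. *Pax8*, a nephron lineage transcription factor gene in that list, was at 92.2 and 107 TPM. *Akap12*, *Pax8* and *Krt18* had intervals below 1, while *Krt8* (1.53, 1.42 to 1.64) and *Cldn1* (1.06, 1.03 to 1.09) had intervals above 1. These were 60% below 1 and 40% above it, against 17.3% and 19% of all measured genes. The part of these cell types in the lower *Cdh6* and *Cdh16* values was not tested, and in bulk libraries fewer cells of a type and less RNA per cell cannot be told apart.

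The mesenchymal cadherins came next in level. *Cdh11*, cadherin 11 of fibroblasts and bone-forming cells, had 16566 counts in VhlhKO and 14980 in Ctrl, or 194 and 189 TPM. Its ratio was 1.03 (1.00 to 1.05), so the libraries nearly matched. *Cdh2*, N-cadherin, which neurons, mesenchyme and also proximal tubule cells make, had 10104 and 7798 counts, or 130 and 109 TPM. Its ratio of 1.20 (1.17 to 1.24) was the higher of the pair. Together they summed to 324 TPM in VhlhKO and 298 in Ctrl (count ratio 1.09, 1.07 to 1.11), and their share of the TPM of all members was 24.6% and 20.0%. *Cdh6* stood at 2.35 times the *Cdh11* level in VhlhKO and 3.45 times in Ctrl. Among 7 measured markers of fibroblasts and pericytes, 3 passed 2-fold on the VhlhKO side (42.9%, against 1.71% of all measured genes) and none on the Ctrl side. The 3 were *Col1a1* (7666 and 2169 counts), *Col1a2* (10432 and 2623) and *Pdgfra* (57 and 9). *Cspg4*, a pericyte gene and the most abundant of the list in Ctrl, was lower in VhlhKO within 2-fold, at 69.9 and 84.4 TPM (0.831, 0.806 to 0.857). That list summed to 359 TPM in VhlhKO and 199 in Ctrl, a wider gap than that of the mesenchymal cadherins. Its part in the *Cdh2* value was not tested.

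The epithelial cadherins were low but present. *Cdh3*, P-cadherin, had 1161 counts in VhlhKO and 1103 in Ctrl, or 27.6 and 28.3 TPM, a ratio of 0.978 (0.900 to 1.06). *Cdh1*, E-cadherin of most epithelial junctions, had 398 and 260 counts, or 9.05 and 6.39 TPM, a ratio of 1.42 (1.21 to 1.67). *Cdh3* was therefore the more abundant of the pair, at 3.04 times the *Cdh1* level in VhlhKO and 4.43 times in Ctrl. *Cdh2* stood at 14.4 times the *Cdh1* level in VhlhKO and 17.0 times in Ctrl. *Epcam*, the epithelial surface gene used for depletion, had 155 and 69 counts (ratio 2.09, 1.56 to 2.81), and the keratin gene *Krt8* had 2121 and 1291. Both were higher in the library in which *Cdh1* was higher, but the partner keratin gene *Krt18* was not, with 1296 and 1313 counts (0.917, 0.849 to 0.991), so epithelial genes did not all go one way. Their part in the *Cdh1* value was not tested. Of 3 measured mesothelial markers 1, *Msln* (522 and 187 counts), was at least 2-fold higher in VhlhKO on the log2 scale. That was 33.3%, against 1.71% of all measured genes. *Krt19* (473 and 214 counts, 2.05, 1.74 to 2.42) had a ratio above 2 before 0.5 CPM was added. *Upk3b* (53 and 66 counts, 0.746, 0.510 to 1.09) had an interval that held 1. The list summed to 45.8 and 21.9 TPM.

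The endothelial cadherins had one of the lowest summed levels, 2.79 TPM in VhlhKO and 2.58 TPM in Ctrl. *Cdh5*, the VE-cadherin of blood and lymphatic endothelial junctions, had 105 counts in VhlhKO and 95 in Ctrl, or 2.60 and 2.54 TPM. The ratio was 1.03, with a wide interval of 0.771 to 1.37. *Pcdh12*, a protocadherin of endothelial cells, had 11 and 2 counts and did not pass the minimum. Its ratio of 5.11 had a very wide interval of 1.12 to 47.4. Together they made up 0.212% of the TPM of all members in VhlhKO and 0.173% in Ctrl. *Cdh11* stood at 74.5 times the *Cdh5* level in VhlhKO and 74.4 times in Ctrl, and *Cdh6* at 175 and 257 times. The other endothelial markers were low as well, as 8 genes summed to 12.8 TPM in VhlhKO and 10.4 in Ctrl and none of the 4 measured ones was past 2-fold. Of the lymphatic list, which summed to 150 and 126 TPM mostly through *Pdpn*, *Lyve1* (128 and 10 counts) was at least 2-fold higher. *Cdh5*, a defining gene of the labelled cell type, was thus a minor cadherin in both libraries.

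*Cdh13* had the highest log2 ratio of all members. It encodes T-cadherin, a lipid-anchored cadherin without a cytoplasmic tail that binds adiponectin and is made by endothelium and smooth muscle. The gene spans chr8:118283733-119324921. It received 408 counts (3.78 TPM) in VhlhKO and 218 (2.18 TPM) in Ctrl, with a ratio of 1.74 (1.47 to 2.06) and a log2 ratio of 0.76. Of all measured genes, 2.97% had a higher log2 ratio. The endothelial list and that of fibroblasts and pericytes, the latter without *Cspg4* among its higher genes, were also higher in VhlhKO by summed TPM, and their part was not tested.

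**Figure D2:**
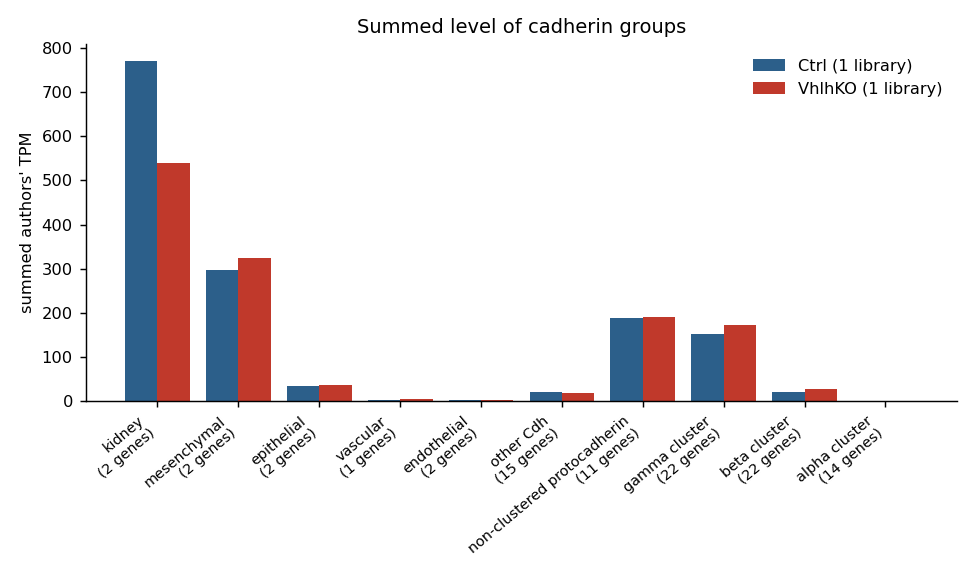
Summed authors' TPM of each cadherin group in the Ctrl (blue) and VhlhKO (red) libraries, with the number of genes under each name and 1 library per bar. The kidney pair stands at 770 TPM in the Ctrl bar and 539 TPM in the VhlhKO bar, while the mesenchymal pair stands at 298 and 324 TPM and the endothelial pair is barely visible at 2.58 and 2.79 TPM.

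The other 15 *Cdh* genes were low or silent and summed to 17.7 TPM in VhlhKO and 20.3 TPM in Ctrl. Only *Cdh24*, a classical cadherin that binds catenins, and *Cdh4*, R-cadherin of retina and developing kidney, reached more than 5 TPM. *Cdh24* had 289 and 368 counts, or 8.62 and 11.9 TPM, and was lower in VhlhKO with a ratio of 0.730 (0.623 to 0.854). *Cdh4* had 415 and 337 counts, a ratio of 1.14 (0.989 to 1.32). *Cdh23*, which with *Pcdh15* forms the tip links of hair cells in the inner ear, had 37 and 55 counts (0.625, 0.401 to 0.966). The brain cadherins *Cdh10* (162 and 148 counts) and *Cdh18* (28 and 21) had intervals that held 1. *Cdh17*, the liver-intestine cadherin and a relative of *Cdh16*, had 17 and 11 counts, *Cdh26* had 2 and 6, and *Cdh15*, the muscle cadherin, had 3 in each. *Cdh9*, *Cdh19* and *Cdh20* had 1 count in 1 library. *Cdh7*, *Cdh8*, *Cdh12* and *Cdh22* had none, and 0 counts allow a level of up to 0.0873 CPM in VhlhKO and 0.0940 CPM in Ctrl, the level of 3 counts.

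The 11 non-clustered protocadherins outside the endothelial pair summed to 191 TPM in VhlhKO and 188 in Ctrl, with a count ratio of 1.01 (0.985 to 1.03) that covers genes on both sides. *Pcdh7*, a delta-1 protocadherin, had 6001 and 6612 counts, or 58.9 and 70.1 TPM, and was lower in VhlhKO (ratio 0.843, 0.814 to 0.873). *Pcdh1*, a delta-1 protocadherin known from airway epithelium, had 5493 and 4776 counts, or 65.0 and 61.0 TPM (1.07, 1.03 to 1.11). *Pcdh9*, of the same subfamily, had 1941 and 1347 counts, or 29.8 and 22.3 TPM (1.34, 1.25 to 1.44). The delta-1 genes therefore differed in direction, and their order changed, with *Pcdh7* above *Pcdh1* in Ctrl and below it in VhlhKO.

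Among the delta-2 genes, *Pcdh19*, whose human counterpart is mutated in an epilepsy that affects mostly females, had 1571 counts in VhlhKO and 1029 in Ctrl, or 15.6 and 11.1 TPM. Its ratio was 1.42 (1.31 to 1.54), and 5.97% of all measured genes had a higher log2 ratio. *Pcdh18* had 1000 counts in each library, 19.4 and 21.0 TPM, and a ratio of 0.929 (0.850 to 1.02) after scaling. *Pcdh17* (153 and 131 counts) and *Pcdh10* (111 and 123) were low, with intervals that held 1. *Pcdh8* (4 and 11), and outside this subfamily *Pcdh20* (15 and 8), *Pcdh11x* (17 and 9) and *Pcdh15* (15 and 9) did not reach the minimum. Of the printed promoter windows, the one with more CG dinucleotides is that of *Pcdh19* and the one with fewer that of *Cdh6*, which is a description of a single pair.

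**Figure D3:**
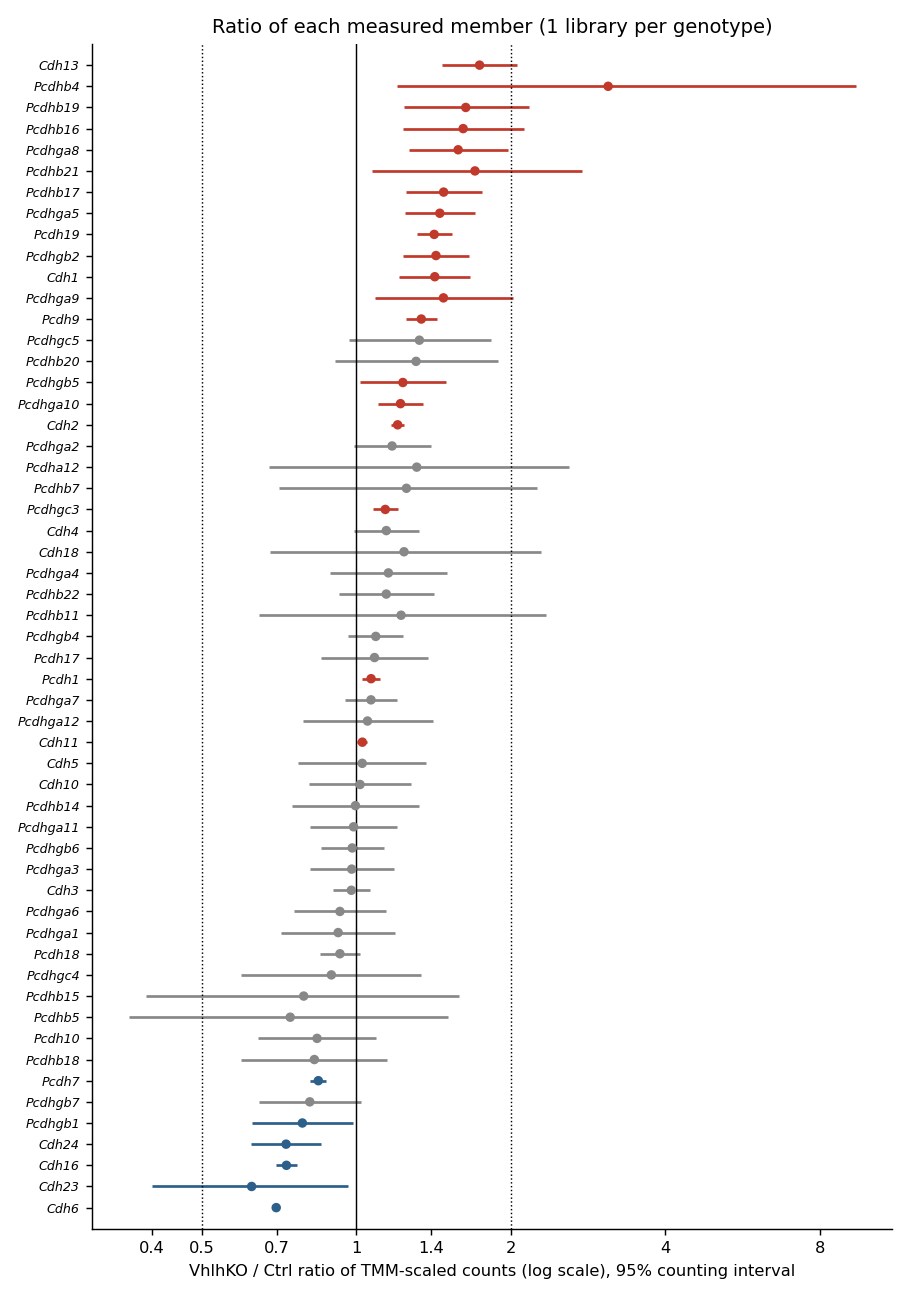
VhlhKO over Ctrl ratio of scaled counts for each of the 55 measured members, ordered by the log2 ratio with 0.5 CPM added, on a log axis with the 95% counting interval as a bar. Red marks the 19 members whose interval lies above 1, blue the 6 below 1 and grey the 30 that hold 1, and the dotted lines stand at 0.5 and 2. *Cdh6* at the foot has the narrowest interval (0.689 to 0.707), and *Pcdhb4* near the top the widest (1.20 to 9.42).

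The clustered protocadherins lie side by side on chromosome 18, which holds 61 of the 93 members. In the gamma and alpha clusters each gene joins its own first exon to constant exons shared by the cluster. Of the exon bases of a gamma gene, between 33.2% (*Pcdhga4*) and 68.5% (*Pcdhgb5*) belong to no other gene, and the sources used here do not say how reads of the shared exons were assigned. Counts of single gamma and alpha genes are uncertain for that reason, and so are their TPM, which divide by the whole exon length. *Pcdhgb8*, which carries the shared exons, had only 15 and 16 counts, so those reads were hardly credited to every gamma gene. If they were left out, the TPM of gamma and alpha genes are too low. Most beta genes stand on exons of their own.

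All 22 gamma genes had counts and 21 were measured, the most of any cluster. They summed to 8580 counts in the VhlhKO library and 7045 in the Ctrl library (ratio 1.13, 1.10 to 1.17). *Pcdhgc3*, a C-type gene that many tissues make, led the cluster with 2850 and 2325 counts, or 53.9 and 47.5 TPM (ratio 1.14, 1.08 to 1.20). It took 33.2% of the gamma counts in VhlhKO (exact interval 32.2 to 34.2) and 33.0% in Ctrl (31.9 to 34.1), so its share was alike in the 2 libraries within counting error. Without it the cluster had a ratio of 1.13 (1.09 to 1.17). The other C-type genes, *Pcdhgc4* (51 and 53 counts) and *Pcdhgc5* (100 and 70), were low. The 12 A-type genes had a summed ratio of 1.16 (1.10 to 1.21) and the 7 B-type genes 1.08 (1.01 to 1.15), and these intervals overlap.

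Single gamma genes were spread over a wider range than the sum. *Pcdhga8* had 221 and 130 counts, a ratio of 1.58 (1.27 to 1.98), and was past 1.5-fold. *Pcdhga5* (418 and 267 counts) and *Pcdhgb2* (454 and 295) had ratios of 1.45 and 1.43, and *Pcdhga10* (882 and 672) had 1.22. In the other direction *Pcdhgb1* had 147 and 174 counts, a ratio of 0.785 (0.626 to 0.983). Of the 21 measured genes, 7 had an interval above 1, 1 below it, and 13 held it. That was 33.3% above 1 and 4.76% below it, against 19% and 17.3% of all measured genes. The abundant *Pcdhga7* (638 and 555 counts), *Pcdhgb4* (572 and 487) and *Pcdhgb6* (410 and 388) were among the 13. *Pcdhgb8*, annotated as a polymorphic pseudogene, had 15 and 16 counts.

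The beta cluster was lower in level and leaned further to the VhlhKO side. Its 22 genes summed to 27.6 TPM in VhlhKO and 21.7 TPM in Ctrl, on 1330 and 967 counts, a ratio of 1.28 (1.18 to 1.39). *Pcdhb17* led with 352 and 221 counts (1.48, 1.25 to 1.76), which was 26.5% of the cluster's counts in VhlhKO and 22.9% in Ctrl. *Pcdhb16* (153 and 88 counts, 1.62, 1.23 to 2.12), *Pcdhb19* (146 and 83, 1.63, 1.24 to 2.17) and *Pcdhb4* were past 1.5-fold. *Pcdhb4* rested on 20 counts against 6, and its ratio of 3.10 (1.20 to 9.42) became a log2 ratio of 0.65 once 0.5 CPM was added. *Pcdhb21* (55 and 30 counts, 1.70, 1.07 to 2.75) had an interval above 1 as well, within 1.5-fold on the log2 scale. *Pcdhb22* (197 and 160 counts) and *Pcdhb20* (76 and 54) held 1, and *Pcdhb14* (104 and 97 counts) and *Pcdhb18* (74 and 83) did not lean that way. Of the 13 measured beta genes, 5 had an interval above 1, none below, and 8 held it. The share above 1 was 38.5%, against 19% of all measured genes, of which 17.3% lay below 1. In chromosomal order the genes from *Pcdhb14* on carried most of the reads. The 9 beta genes under the minimum had at most 16 counts in a library, and *Pcdhb1*, the first in order, had none.

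The alpha cluster was nearly silent. Its 14 gene IDs summed to 71 and 48 counts in VhlhKO and Ctrl, and the interval of the ratio of 1.37 (0.940 to 2.03) held 1. *Pcdha12* (24 and 17 counts) was the only one measured, followed by *Pcdhac2* (17 and 16) and by *Pcdha11* (16 and 6 on 1 ID, 3 and 0 on the other). *Pcdha9* had 6 and 4 counts, and no further alpha gene had more than 2. *Pcdha2*, *Pcdha4* and *Pcdhac1* had none in either library. The 3 clusters thus kept the order gamma, beta, alpha in both libraries.

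**Figure D4:**
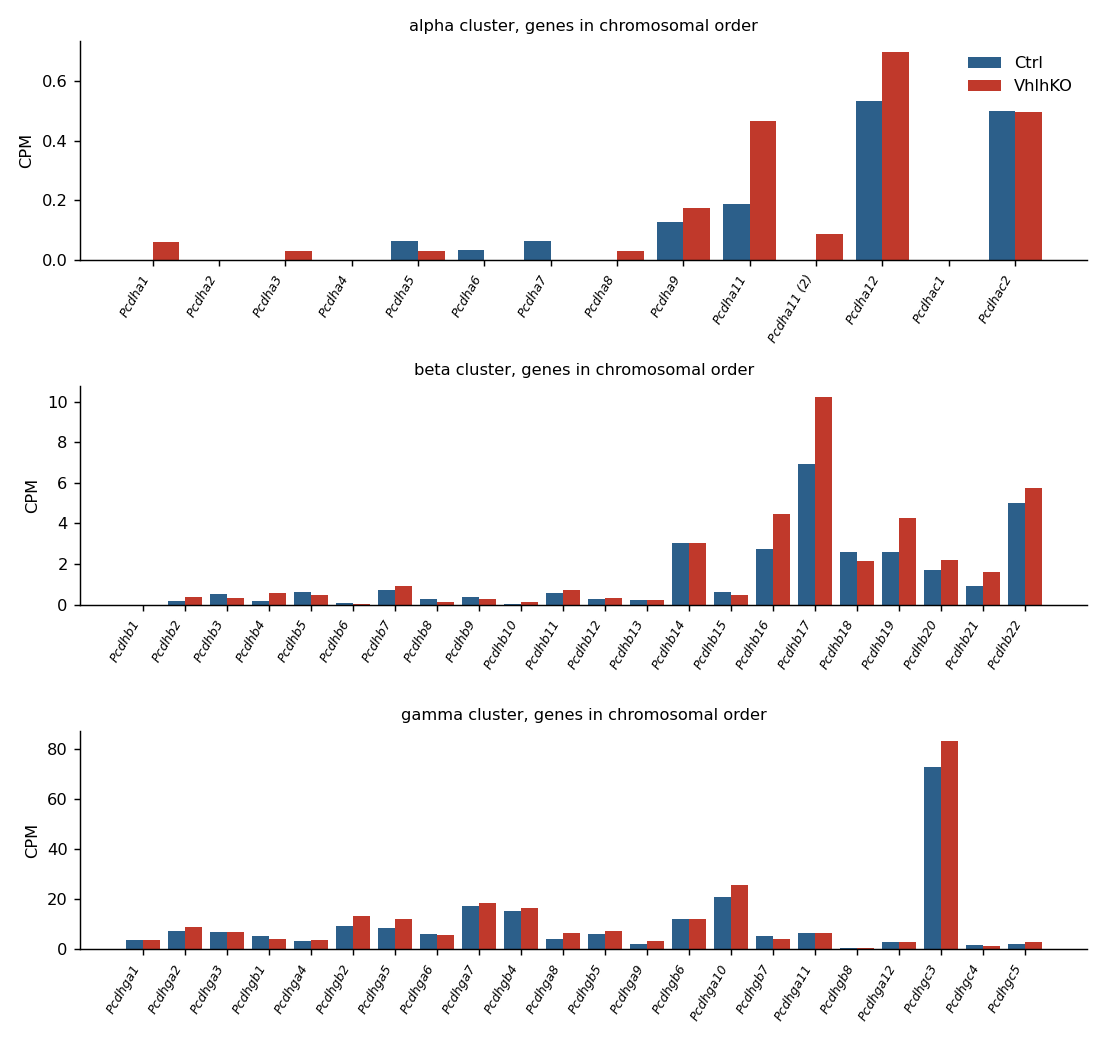
CPM of scaled counts for each gene of the alpha (top), beta (middle) and gamma (bottom) clusters in chromosomal order, in Ctrl (blue) and VhlhKO (red), each panel on its own axis with 1 library per bar. *Pcdhgc3* stands alone in the gamma panel at 72.8 CPM in Ctrl and 83.0 CPM in VhlhKO, the reads of the beta cluster gather at *Pcdhb14* and beyond, and no alpha gene reaches 1 CPM.

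All 93 members together had 98503 and 104898 counts in VhlhKO and Ctrl (ratio 0.872, 0.865 to 0.880). Without *Cdh6*, the other 92 members had a ratio of 1.05 (1.03 to 1.06). By TPM the *Cdh* genes made up 70.2% of all members in VhlhKO and 75.7% in Ctrl. If the TPM of gamma and alpha genes are too low, these shares and those of single *Cdh* genes are too high. Chromosome 8 holds 8 members, among them *Cdh11*, *Cdh5*, *Cdh16*, *Cdh3*, *Cdh1* and *Cdh13*. *Cdh3* and *Cdh1* lie 46.1 kb apart and *Cdh5* and *Cdh16* 457.4 kb apart. Their ratios, 0.978 and 1.42 for the former pair and 1.03 and 0.731 for the latter, show that neighbours differed.

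**Figure D5:**
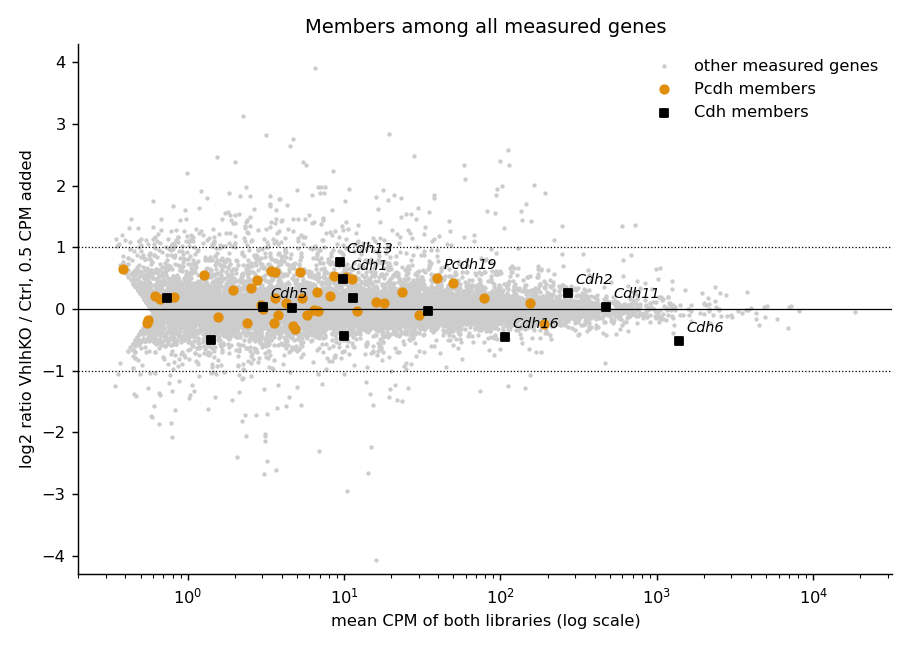
Log2 ratio of VhlhKO over Ctrl with 0.5 CPM added (vertical axis) against the mean CPM of both libraries (horizontal log axis) for all 15275 measured genes (grey), with *Cdh* members as black squares and *Pcdh* members as orange circles. Dotted lines mark 2-fold, and no member lies beyond them. *Cdh6*, at -0.52, sits at the lower edge of the genes of its level.

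Of 22 catenin and adherens junction genes, 20 were measured and none was past 2-fold, with a median log2 ratio of 0.06. The counting interval lay above 1 for 8 of the 20, below 1 for 5 and held 1 for 7. These were 40% above 1 and 25% below it, against 19% and 17.3% of all measured genes. The most abundant were *Ctnnb1*, beta-catenin, at 669 TPM in VhlhKO and 724 in Ctrl, *Vcl*, the actin linker vinculin, at 378 and 406 TPM, and *Ctnna1*, alpha-catenin, at 281 and 293 TPM. Their ratios were 0.927 (0.913 to 0.941), 0.935 (0.920 to 0.950) and 0.963 (0.943 to 0.984), nearer to 1 than that of *Cdh6*. The junction genes *Nectin1* (1561 and 1198 counts, 1.21, 1.12 to 1.31) and *Nectin2* (2775 and 2186, 1.18, 1.11 to 1.25) were higher in VhlhKO. Of 14 desmosome genes 7 were measured, with a median of -0.15, and the interval lay above 1 for 2 and below 1 for 3. The shares were 28.6% above 1 and 42.9% below it, against 19% and 17.3% of all measured genes. *Pkp3*, plakophilin 3, was the only one past 2-fold, higher in VhlhKO on 64 counts against 16 (3.72, 2.12 to 6.89). That was 14.3% of the 7, against 1.71% of all measured genes. Desmosomal cadherins were few, with *Dsg2* at 201 and 142 counts and *Dsc2* at 127 and 138.

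Of 18 other genes of the cadherin superfamily and its relatives, 13 were measured, and 1 passed 2-fold, on the VhlhKO side (median 0.08). That was 7.69% of the 13, against 1.71% of all measured genes. *Fat1*, a giant atypical cadherin that the podocyte slit diaphragm also contains, was at 381 TPM in VhlhKO and 310 in Ctrl (1.24, 1.22 to 1.25), below *Cdh6* in both libraries. *Dchs2* had 36 and 7 counts (4.78, 2.10 to 12.7), while *Dchs1*, a ligand of Fat4 in planar polarity, went the other way with 219 and 354 (0.575, 0.483 to 0.682). *Cdhr1*, known from photoreceptors, had 1532 and 819 counts (1.74, 1.60 to 1.89), and *Cdhr5*, of the brush border, had 77 and 118 (0.606, 0.449 to 0.815). The log2 ratios of this list ran from -0.75 to 1.11, while those of the 55 measured members ran from -0.52 to 0.76. Of the podocyte markers, *Podxl* was at least 2-fold higher in VhlhKO (5206 and 1240 counts), while *Nphs1* had 44 and 77 counts.

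Of 9 genes for cleavage of cadherins at the cell surface and within the membrane, all were measured and none was past 2-fold (median 0.05). The interval lay above 1 for 4 (44.4%, against 19% of all measured genes) and below 1 for none (against 17.3%). *Ncstn*, a subunit of gamma-secretase, was at 200.1 and 180 TPM (1.12, 1.08 to 1.16). *Adam10*, the sheddase of E- and N-cadherin, was at 132 and 116 TPM (1.15, 1.10 to 1.19). All 9 transcriptional repressors of *Cdh1* were measured as well, and none was past 2-fold (median 0.05). *Snai1* had 103 and 55 counts (1.74, 1.24 to 2.46) and *Twist1* 52 and 30 (1.61, 1.01 to 2.61). With *Twist2* (321 and 234 counts), 3 of the 9 had an interval above 1. Only *Tcf3* had one below it (0.933, 0.879 to 0.991). These were 33.3% and 11.1%, against 19% and 17.3% of all measured genes. The far more abundant *Snai2* was at 66.1 and 69.9 TPM. The part of these repressors in the *Cdh1* value was not tested. Of 6 measured macrophage markers 1 (16.7%, against 1.71% of all measured genes) was at least 2-fold higher on the log2 scale, *Lyz2* (2007 and 522 counts). *C1qa* (389 and 178 counts, 2.03, 1.70 to 2.44) and *Adgre1* (66 and 28, 2.19, 1.39 to 3.54) had ratios above 2 before 0.5 CPM was added. The interval lay above 1 for 4 of the 6 and below 1 for 1. These were 66.7% and 16.7%, against 19% and 17.3% of all measured genes. The list summed to 233 and 93.2 TPM, of which *Lyz2* was 159 and 44.6 TPM. *Csf1r* was lower in VhlhKO, with 279 and 307 counts (0.844, 0.715 to 0.996).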

How the data were processed

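Bulk RNA-Seq libraries, 1 per genotype, came from poly(A)-selected, strand-specific, paired-end sequencing. The submitters' processing notes list STAR, featureCounts (Subread), cutadapt, DESeq2, bcl2fastq and the quality tools FastQC and MultiQC, with the builds mm10 and GRCm38. Not given in the sources used here were versions, settings and the annotation release. The authors' deposited table gives raw, not normalized counts and the authors' TPM. For 98.6% of 12108 genes, the length implied by counts and TPM lay within 1% of the exon union of GENCODE M21, which holds 55144 of the 55471 gene IDs and gave the coordinates. The deposited log2 fold changes and p-values of the authors were not used. Columns were assigned to genotypes by their names.

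Here, TMM scaling used edgeR 4.0.16 in R 4.3.3 (factor 0.997 in VhlhKO, 1.003 in Ctrl). The log2 ratio has 0.5 CPM added, which equals 17.2 counts in VhlhKO and 16.0 in Ctrl, so few counts pull it toward 0. Single ratios have nothing added. A gene was measured where the larger count reached 20, and the rule of size was 2-fold. Intervals are exact conditional binomial (95%), and the floor for 0 counts is 3 counts per library. The rule and the intervals were run on simulated counts (scipy 1.17.1, pandas 2.3.3, numpy 2.4.6, Python 3.11.15). These counts held counting error only and planted changes larger than 2-fold. That run checks the code and not the spread between mice or pools. Alternatives were 1.5-fold, other count minimums and pseudocounts, TPM, total counts, and size factors of DESeq2 1.42.0. The labels give no batch.

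The members and gene lists were chosen with earlier results of these data known. Given in full were the epithelial, endothelial, mesenchymal, kidney and vascular members, the 10 members with the highest mean TPM and any past 2-fold. From each partner list up to 4 genes with the largest log2 ratios and up to 3 with the highest TPM could be named. *Dsg2*, *Dsc2*, *Cdhr5*, *Snai2*, *Pax8*, *Krt8*, *Krt18*, *Nectin1*, *Nectin2*, *Lrp2* and other markers were named after their values were seen. TPM of gamma and alpha protocadherins divide by exons that the genes share. Some cell type markers are not reported here.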

Additional observations from a re-analysis of the deposited data

How the results depend on the processing

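With 0.1 CPM in place of 0.5 CPM added, 1 member was at least 2-fold higher in VhlhKO, *Pcdhb4* on 20 counts against 6, beside 404 of all genes (2.64%). With 1.5-fold in place of 2-fold, 5 were higher, *Cdh13*, *Pcdhb16*, *Pcdhb19*, *Pcdhb4* and *Pcdhga8*, beside 725 of all genes (4.75%). The other 7 alternatives gave no higher member, and none of 9 gave a lower one. The median log2 ratio of the *Cdh* members was 0.04 at most and 0 with no count minimum, and that of the *Pcdh* members was between 0.09 (2 CPM added) and 0.19 (0.1 CPM added). Directions held under the alternatives run for the members given in full that passed the count minimum (104 values) and for the group sums (20 values). The 104 values include alternatives that changed only the count minimum. Those cannot alter the log2 ratio of a single member and are no check of it. The log2 ratio of *Cdh6* ranged from -0.53 to -0.51, that of *Cdh16* from -0.46 to -0.44 and that of *Cdh13* from 0.65 to 0.79. *Pcdh12*, with 11 and 2 counts, was under the count minimum and was left out of these values. No paired analysis was possible because each genotype has 1 library, and for the same reason no library could be left out. Depth limits the genes below about 100 counts: the interval of *Cdh5* (0.771 to 1.37) leaves room for a difference in either direction.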
